A study of Mus musculus with 10 samples.

Results

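Splenic B cells were compared with embryonic stem (ES) cells by RNA-seq in 4 of the 10 mouse libraries of a study of Polycomb and Trithorax complexes in T lymphocytes. The 4 libraries were chosen by their labels, 2 of B cells and 2 of ES cells. The other libraries hold splenic CD4 T cells and T cells cultured under T helper 2 conditions with or without trichostatin A. Of these, the CD4 T cell libraries were used beside some results, as a second lymphocyte from the same organ.

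The B cells were primary B220 cells of C57BL/6 mice aged 6 to 8 weeks. They were purified from spleen with magnetic beads and an AutoMACS sorter to a stated purity above 98%. B220 is a form of the surface phosphatase Ptprc that marks B cells, and some plasmacytoid dendritic and NK cells also carry it. The CD4 T cells came from mice of the same strain and age and were purified by the same method. The ES cells were the line B6N-22, also labelled C57BL/6. They grew on mouse embryonic fibroblasts stopped with mitomycin C, in medium with 1000 units/ml of the cytokine LIF and 20% fetal bovine serum. The labels do not say that the fibroblasts were removed before RNA was extracted. Total RNA was used in all groups, and the labels name no transgene or treatment for the B and ES cells. All ES values come from 1 line, and the labels do not say whether the 2 libraries of a group came from separate animals or cultures.

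Mature B cells of the spleen are resting lymphocytes. They carry an antigen receptor whose signal runs through Cd79a and Cd79b, and they present antigen on major histocompatibility complex (MHC) class II proteins. ES cells divide quickly, keep the potential to form all tissues of the embryo through a network of transcription factors around Pou5f1, Sox2 and Nanog, and meet one another at epithelial junctions.

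Levels are given in FPKM, a count of sequenced fragments scaled by transcript length and by the size of the library. A difference is that of log2(FPKM + 1), B minus ES cells, on the means of the 2 libraries, and it understates the change of genes that are low in either group. A gene is called higher or lower in B cells where this difference is at least 2 in size and the higher group has at least 5 FPKM. The 2 libraries of each group were near-identical. The SD of the log2 ratio of their values was 0.0446 in B and 0.0417 in ES cells over genes at 10 FPKM or more. Each pair was therefore counted as 1 sample. There is no replicate test, no SD between animals or cultures, and no p-value, and every difference below is a size.

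Of 12323 tested genes, 1220 were higher in B cells, which is 9.9%, and 1727 were lower, which is 14%. At least 1 FPKM was found for 10097 and 10107 genes in the B libraries and for 11455 and 11456 genes in the ES libraries, and 9097 genes reached it in both groups. The median difference over all tested genes was -0.35. It became -0.10 when libraries were scaled by the median ratio of their genes and -0.08 after quantile normalization. No called gene named below changed direction under either scaling. Cbx2, Smarcc1, Rbbp7, Tnfrsf1a, Cox7a1 and Atp5b lost their call under both, Dpy30 under the median ratio and Fosl2 under quantile normalization, while Bmi1 and Itpr1 gained one under both. Klf13 (2.02) and Mbd2 (2.03) lay so near the limit that leaving out ES library 1 and ES library 2, respectively, put them at 1.99 and 1.97, and Rbbp7 lost its call without B library 1. Ribosomal protein genes took 8.44% and 8.46% of the summed FPKM of the B libraries and 11.99% and 12.0% of that of the ES libraries. Within 0.05 of the limit on the difference, 29 genes lay just inside and 23 just outside upwards, and 49 and 48 downwards.

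**Figure D1:**
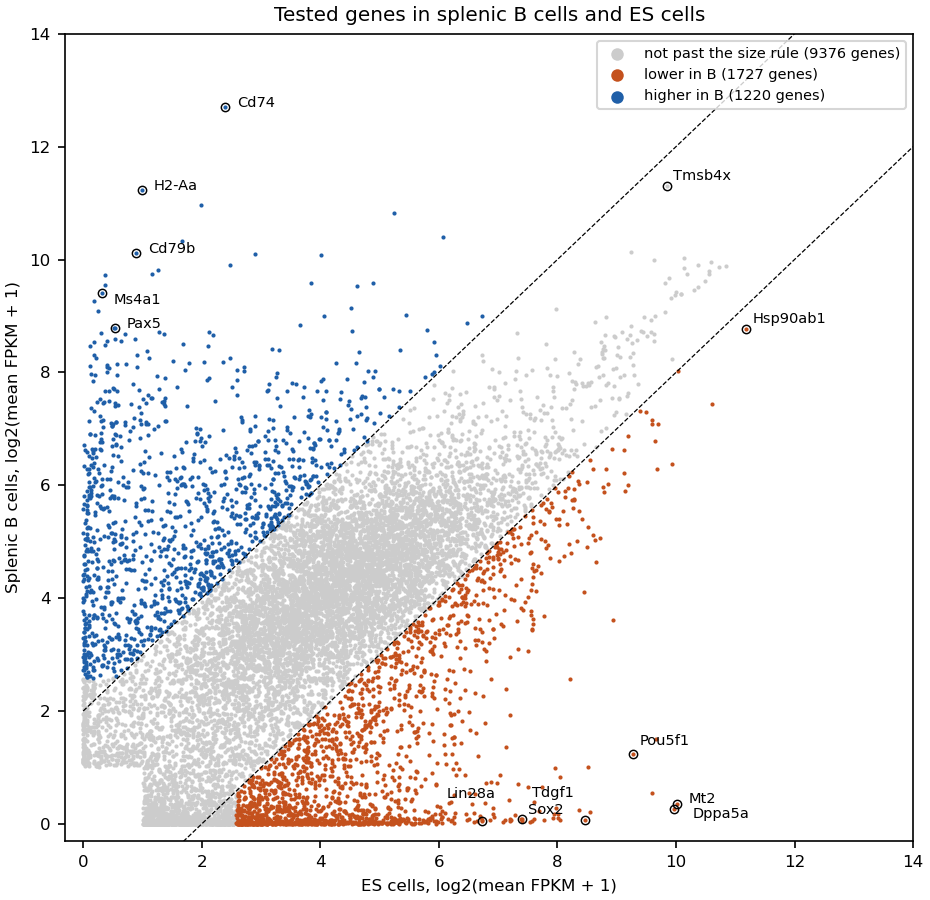
Mean level of each tested gene in ES cells (x axis) and splenic B cells (y axis), both as log2(FPKM + 1). Blue points are the 1220 genes called higher in B cells, orange points the 1727 called lower, grey points the rest, and the dashed lines mark a difference of 2. Cd74, H2-Aa and Cd79b lie at the upper left, and Mt2, Dppa5a and Pou5f1 at the lower right.

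The labels were checked against defining markers first. Cd79b, the beta chain of the B cell receptor's signalling pair, was at 1107 and 1109 FPKM in the B libraries and at 0.7 and 1.02 FPKM in the ES libraries. Pou5f1, the POU factor that defines pluripotent cells, was at 1.41 and 1.32 FPKM in B and at 620 and 620 FPKM in ES cells. Dppa5a, an RNA-binding protein of ES cells, was at 0.21 and 0.35 FPKM against 1045 and 1036 FPKM. Each marker was high in the group it defines and near or under 1.5 FPKM in the other.

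The 15 largest differences towards B cells included 5 genes of class II presentation and both signalling chains of the B cell receptor. Cd74, the invariant chain that escorts class II proteins, had the highest level of any gene in B cells, 6707 and 6658 FPKM, against 3.92 and 4.59 FPKM in ES cells, a difference of 10.31. H2-Aa, the alpha chain of the class II protein I-A, had 2399.9 and 2403 FPKM against 0.79 and 1.18 FPKM, a difference of 10.24. Others among the 15 largest were Cd79b, Ly6d, Ms4a1, Faim3, H2-Ab1, H2-Ob, H2-Eb1, Cd79a, Cd52, Fcer2a, Pou2af1 and Blk, with differences between 9.22 and 8.34. Cd74, H2-Aa, H2-Ab1 and H2-Eb1 alone took 3.5% and 3.49% of the summed FPKM in the B libraries and 0.75% in both CD4 T libraries. After Cd74, the highest levels in B cells were those of Tmsb4x, H2-Aa, H2-Ab1, B2m, H2-Eb1, Rps27, Cd79b, Cd37 and H2-K1.

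The MHC class II list had 14 of 16 measured members higher in B cells and none lower, with a median difference of 6.83. They comprise the peptide-binding chains (H2-Aa, H2-Ab1, H2-Eb1, H2-Eb2), the chains that load peptides (H2-DMa, H2-DMb1, H2-DMb2) and those that restrain loading (H2-Oa, H2-Ob). H2-Ob had 542 and 544 FPKM in B and 0.13 and 0.26 FPKM in ES cells, and H2-DMb2 had 318 and 317 FPKM against 0.1 and 0.17 FPKM. Ciita, the co-activator on which class II transcription depends, had 119.85 and 119.83 FPKM against 0.1 and 0.07 FPKM, a difference of 6.80. Its DNA-bound partners differed far less. Rfx5 was higher in B cells by 2.81, while Rfxap differed by 0.66 and Rfxank by 0.21, so 2 of the 3 RFX subunits measured were not called.

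Class II genes lie together on chromosome 17, and the deposited levels can be read along it. Between the start of H2-Oa and the end of H2-Eb2 (chr17:34092379-34341410, GRCm38.p6), 14 measured genes have a position in RefSeq. Of these, 13 were higher in B cells, none was lower, and 1 was not called. The exception was Brd2, a reader of acetylated histones, with 93.61 and 93.1 FPKM in B and 82.63 and 82.07 FPKM in ES cells. The positions of Brd2 and H2-DMa overlap, and whether strand was used in counting is not given in the sources used here. Among the genes of this interval that serve class I presentation, Psmb9, Tap1, Psmb8 and Tap2 had between 93.76 and 178.16 FPKM in the B libraries and between 1.4 and 1.65 FPKM in the ES libraries. In CD4 T cells these 4 genes had means between 140.9 and 235.2 FPKM, above those of B cells. H2-Oa, H2-Ob and the H2-DM genes in T cells had means between 25.46 and 67.72 FPKM, below those of B cells.

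**Figure D2:**
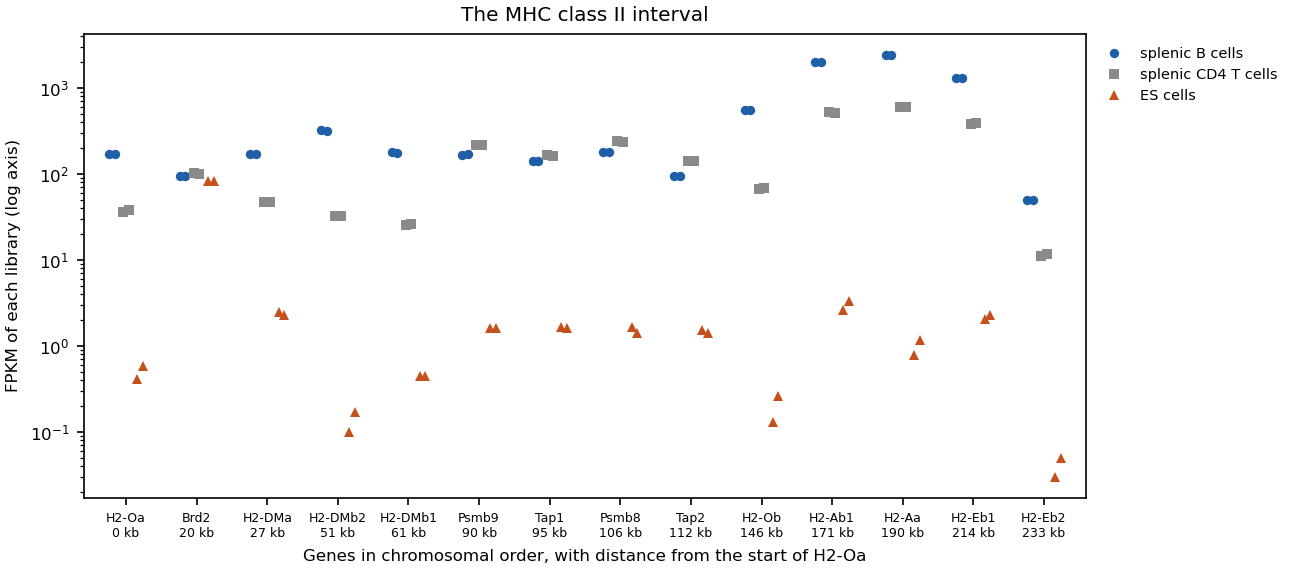
FPKM of each library on a log axis for the 14 measured genes of the class II interval, in chromosomal order with the distance from the start of H2-Oa. Circles are the B, squares the CD4 T and triangles the ES libraries. Brd2 is the gene at which the ES libraries lie near the others, and at the other 13 genes the ES libraries are at 3.33 FPKM or less.

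The promoters of class II genes are known to carry an X box, bound by the RFX subunits, and a Y box, an inverted CCAAT sequence bound by NF-Y, in a fixed order. They are shown because these genes were higher together. The promoter table of RefSeq (GRCm38.p6, 250 bases before to 50 after the first listed start of a gene) held 11 of the 16 list members. It had no entry for Cd74, H2-Ab1, Ciita, Rfxap and Cd83. The Y box core was searched as TGATTGG on both strands. It was found in 8 of the 11 promoters (72.73%), in 10.38% of the promoters of tested genes and in 8.2% of all 27025 promoters. On the strand of the gene it was found in H2-Aa, H2-Eb1, H2-Eb2, H2-Oa, H2-Ob, H2-DMb1 and H2-DMb2. The remaining match lay on the opposite strand, outside the known arrangement. The core contains the shorter motif CCAAT on its other strand. For the X box a pattern was written after these promoters had been seen: CT, 3 free bases, AAC, 2 free bases and ATGATG, searched on both strands. It was found in 4 of the 11 and in 7 of all 27025 promoters (0.03%), and its count in the class II genes is therefore a description of how it was chosen. Windows of 87 bases follow for 6 genes, each on the strand of its gene, with the Y box core and, where present, the X box pattern in capitals.
H2-Aa: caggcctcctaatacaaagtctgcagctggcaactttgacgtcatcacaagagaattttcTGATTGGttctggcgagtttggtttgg
H2-Eb1: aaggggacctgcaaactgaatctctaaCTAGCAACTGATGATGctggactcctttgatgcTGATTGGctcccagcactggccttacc
H2-Ob: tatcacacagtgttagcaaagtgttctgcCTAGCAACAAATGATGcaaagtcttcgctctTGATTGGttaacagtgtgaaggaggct
H2-Oa: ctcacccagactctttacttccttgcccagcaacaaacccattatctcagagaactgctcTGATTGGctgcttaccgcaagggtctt
H2-DMb1: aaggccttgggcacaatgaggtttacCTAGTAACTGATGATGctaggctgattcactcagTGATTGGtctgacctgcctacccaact
H2-DMb2: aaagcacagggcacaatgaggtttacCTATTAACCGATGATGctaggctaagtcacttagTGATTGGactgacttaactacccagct

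The windows lie at chr17:34287847-34287933 on the minus strand for H2-Aa and, on the plus strand, at chr17:34305746-34305832 for H2-Eb1, chr17:34238786-34238872 for H2-Ob, chr17:34092274-34092360 for H2-Oa, chr17:34153068-34153154 for H2-DMb1 and chr17:34145097-34145183 for H2-DMb2. Between the X box pattern and the Y box core lay 17 bases in H2-Eb1, 15 in H2-Ob, and 18 in H2-DMb1 and in H2-DMb2. The Y box core began at -50 from the start in H2-Aa, -61 in H2-Eb1, -59 in H2-Ob, -45 in H2-Oa, -63 in H2-DMb1 and -92 in H2-DMb2. A match is a run of letters in a window and no evidence that a factor is bound.

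Class I presentation is a property of nearly all nucleated cells, and ES cells are known for low surface class I. In this list 15 of 20 measured members were higher in B cells and none lower, with a median difference of 4.17. B2m, the light chain of every class I protein, had 1342 and 1364 FPKM in B and 64.48 and 67.15 FPKM in ES cells. H2-K1, a classical heavy chain, had 1080.2 and 1083 FPKM against 15.34 and 14.76 FPKM. H2-T23, a non-classical heavy chain, differed by 6.39. The members not called included the general chaperones of the endoplasmic reticulum, Canx (-1.54), Pdia3 (-1.37) and Calr (-0.40). Class I heavy chains are near-identical in sequence, so their reads could be split among copies.

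The catalytic proteasome subunits exist as pairs, a standard one and an immune one that takes its place. The immune subunits Psmb8, Psmb9 and Psmb10 were higher in B cells by 6.14, 6.01 and 2.55. Their standard partners Psmb5, Psmb6 and Psmb7 were on the other side, at -1.69, -1.87 and -1.93, and none of the 3 passed the limit. In B cells Psmb8 had 178.16 and 176.82 FPKM and Psmb5 28.53 and 30.95 FPKM, and in ES cells Psmb8 had 1.65 and 1.4 FPKM and Psmb5 96.44 and 100.05 FPKM. FPKM is per length, so the order of the 2 partners can be compared within a library, and it was opposite in the 2 cell types.

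The interferon response list had 22 of 25 measured members higher in B cells and none lower, with a median difference of 3.31. Trim30a, a regulator of innate signalling, had 98.67 and 98.49 FPKM in B and 0.11 FPKM in both ES libraries. Ifi47, an immunity-related GTPase, differed by 5.34, and Irf7, a factor that drives interferon genes, by 4.82. Mx1, an antiviral GTPase, was at 20.2 and 20.29 FPKM in B and listed at 0 in both ES libraries. Rsad2 (2.12) and Ifit1 (1.60) stayed under 5 FPKM, and Bst2, which tethers virus particles, was at 68.02 and 65.52 FPKM against 66.87 and 69.24 FPKM. All 8 measured Gimap genes, GTPases of lymphocytes, were higher in B cells, with a median of 7.19. Gimap4 had 408.57 and 413.55 FPKM in B and 0.63 FPKM in both ES libraries. In CD4 T cells its mean was 1140.1 FPKM.

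Transcription factors of the B lineage separated the groups almost completely. Of 24 measured, 22 were higher in B cells and none lower, with a median difference of 5.36. Pax5, which holds cells to the B lineage, had 445 and 440 FPKM in B and 0.45 FPKM in both ES libraries. Pou2af1, the co-activator of octamer factors, had 371 and 374 FPKM against 0.14 and 0.12 FPKM. Spib, an Ets factor close to Spi1, differed by 8.12, the Ikaros family member Ikzf3 by 8.04, Irf8 by 7.37 and Lmo2 by 6.75. The factors not called were Klf2, with 170.41 and 181.27 FPKM in B and 68.27 and 70.37 FPKM in ES cells, and the E protein Tcf3, with 101.45 and 100.46 FPKM against 49.02 and 47.37 FPKM. Both were thus well expressed in ES cells too. Ebf1, with Pax5 a specifier of the lineage, had 57.25 and 57.34 FPKM in B, 1.61 and 1.78 FPKM in ES and a mean of 2.74 FPKM in CD4 T cells.

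The B cell receptor and its activating pathway had 21 of 24 measured members higher in B cells and none lower, with a median of 6.18. Ms4a1, which encodes CD20, had 681 and 679 FPKM against 0.23 and 0.25 FPKM, and Cd79a differed by 8.59. The kinase Blk had 350 and 352 FPKM against 0.05 and 0.12 FPKM. Itpr1 (1.94), Bcl10 (0.98) and Cd81 (-0.61) were not called. Cd81, a tetraspanin of the co-receptor complex, had 103.68 and 104.38 FPKM in B cells and 159.81 and 158.26 FPKM in ES cells.

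Receptors that dampen this pathway were higher in B cells in 15 of 17 cases, with none lower and a median of 5.30. Btla, which binds Tnfrsf14, had 439 and 441 FPKM against 0.39 and 0.48 FPKM. The adaptor Bank1 differed by 7.99, Fcrl1 by 7.83, Cd72 by 7.43, Siglecg by 7.40 and Cd22 by 7.32. The remaining 2 of this list, Cd5 and Cd300a, were under 5 FPKM in both groups. Activating and inhibitory parts of the receptor system were therefore both among the genes called higher.

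Markers of B cell stages were also compared with ES cells, and the share of each stage among the B cells was not tested. Among genes of immunoglobulin assembly and early B cells, 3 of 11 measured were higher in B cells, and 7 were under 5 FPKM in both groups. Vpreb3 was at 97.69 and 99.11 FPKM and Cd24a at 185.08 and 189.55 FPKM in B cells, whereas the recombinase genes Rag1 (1.16 and 1.2 FPKM) and Rag2 (0.08 and 0.04 FPKM) were near 0. Among germinal centre and plasma cell genes, 3 of 16 measured were higher, namely Mzb1, Igj and Slamf7. For comparison, 9.9% of all tested genes were higher and 14% lower. S1pr2 was lower, with 1.87 and 2.0 FPKM in B and 24.56 and 24.66 FPKM in ES cells. Sdc1, which marks plasma cells, was at 4.76 and 4.8 FPKM in B cells against 19.37 and 19.73 FPKM in ES cells.

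Genes of mature follicular and marginal zone B cells were mostly high. In that list 10 of 16 measured members were higher in B cells and Cd9 was lower. Fcer2a, the CD23 receptor of follicular B cells, had 416 and 414 FPKM against 0.22 and 0.25 FPKM. Cr2, the complement receptor CD21, had 231 and 229 FPKM against 0.1 and 0.13 FPKM. Cxcr5, which guides cells to follicles, differed by 7.24. Cd9, a tetraspanin, was at 23.21 and 24.23 FPKM in B cells and 149.08 and 145.7 FPKM in ES cells.

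Lists of signalling and movement followed. Of 18 measured chemokine receptor and trafficking genes, 15 were higher and none lower, with a median of 5.27, among them, beside Cxcr5, Cxcr4 (6.45), Ccr6 (6.32), Icam2 (6.21) and Ccr7 (6.16). Of 19 costimulation and TNF family genes, 14 were higher, with Tnfrsf13c, the receptor for the survival factor BAFF, at 209.7 and 210.5 FPKM against 0.4 and 0.44 FPKM. Tnfrsf1a was the 1 gene called lower, at 1.99 and 2.24 FPKM against 13.5 and 12.84 FPKM. Of 17 Toll-like receptor genes 10 were higher, with the Cd180 partner Ly86 at 268 and 274 FPKM against 0.25 and 0.39 FPKM. Of 19 NF-kappaB genes 12 were higher, Rel by 4.65 and the inhibitor Nfkbie by 4.33, while Rela differed by 1.70. Neither the Toll-like receptor nor the NF-kappaB list had a member called lower.

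All 18 measured genes of the leukocyte cytoskeleton were higher in B cells, with a median of 5.66. Coro1a, an actin-binding coronin, had 949.5 and 962 FPKM against 4.05 and 5.07 FPKM, and Rac2, a small GTPase of blood cells, had 282 and 286 FPKM against 0.51 and 0.79 FPKM. In CD4 T cells the means of Coro1a and Rac2 were 1079.7 and 336 FPKM, above those of B cells. Their paralogs were on the other side. Coro1c was lower in B cells by a difference of -2.36 and Rac3 by -2.57, while the shared members Coro1b (0.96) and Rac1 (-0.37) were not called. The same held for the plastins, where Lcp1 differed by 6.13 and Pls3 by -4.75, and for the dissociation inhibitors of such GTPases, where Arhgdib differed by 4.62, Arhgdig by -2.85 and the uncalled Arhgdia by -0.12, with its sign turned by both scalings.

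**Figure D3:**
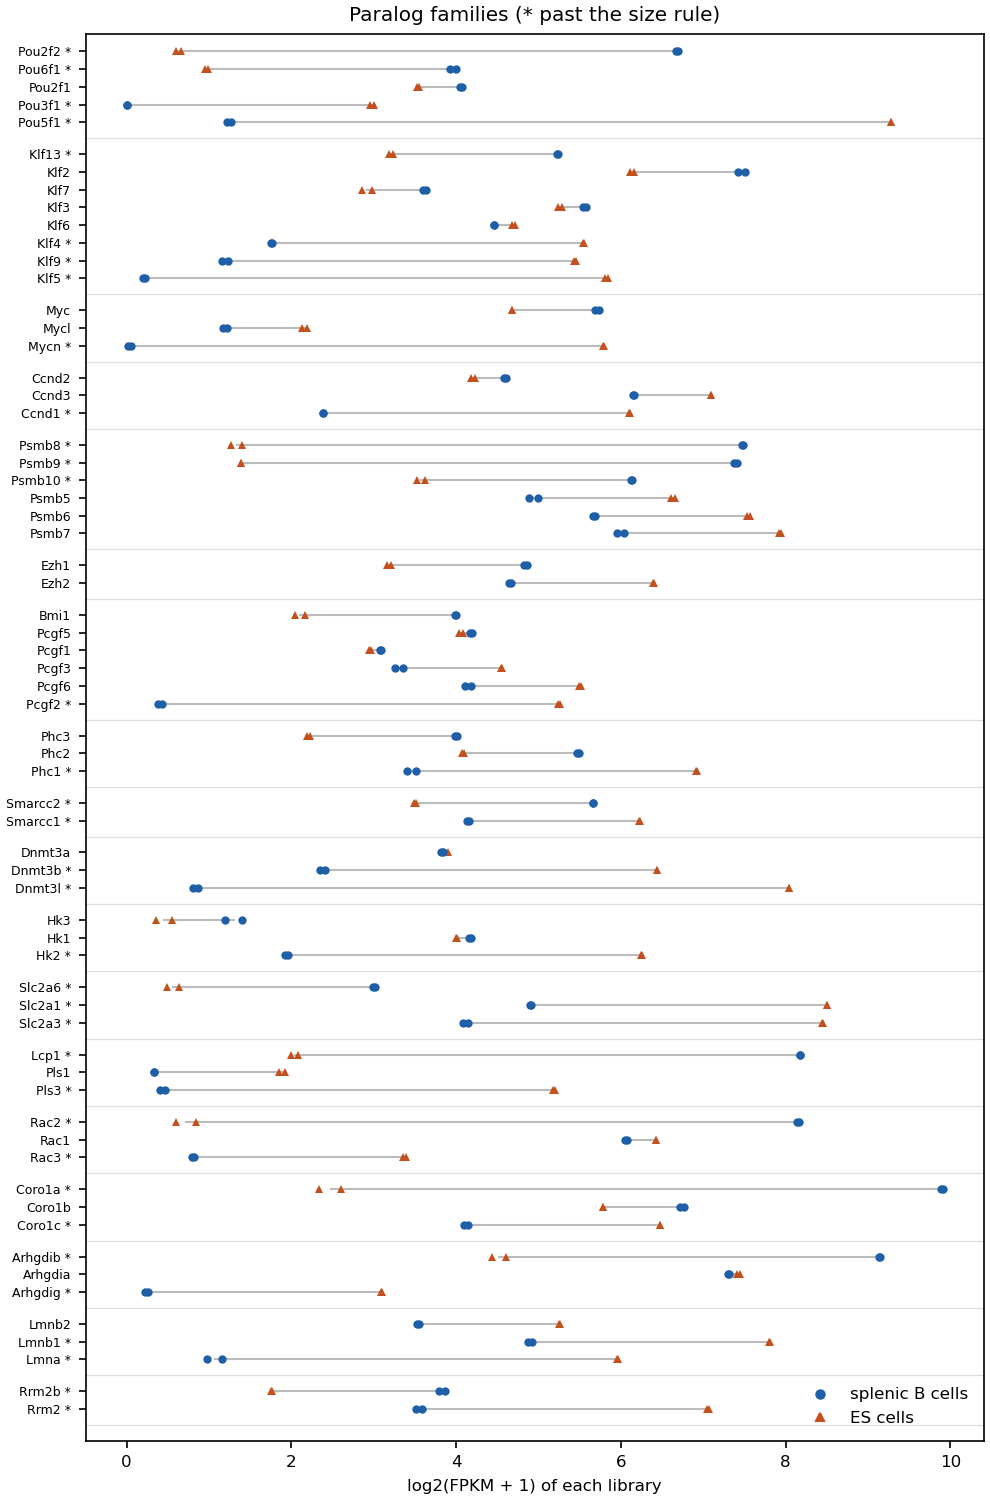
Level of each member of 18 paralog families in each library, as log2(FPKM + 1), with circles for B and triangles for ES libraries and a grey line joining the group means. An asterisk marks members past the size rule. Within the POU, KLF, plastin, RAC and coronin families, called members lie on both sides, with Pou2f2 far to the right in B cells and Pou5f1 far to the right in ES cells.

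Paralogs among the POU and KLF transcription factors also had called members on opposite sides. Pou2f2, the octamer factor of B cells, had 100.66 and 102.24 FPKM in B and 0.58 and 0.52 FPKM in ES cells, against the reverse order of Pou5f1, while the widely expressed Pou2f1 differed by 0.52. Klf4, Klf5 and Klf9 were lower in B cells, by differences of -3.79, -5.61 and -4.25, and Klf13 was higher by 2.02. Mycn had 0.01 and 0.04 FPKM in B and 54.54 and 53.94 FPKM in ES cells, whereas Myc had 50.7 and 52.11 FPKM in B and 24.53 FPKM in both ES libraries and was not called. Lmna, Lmnb1, H1f0 and H1fx, genes of the nuclear lamina and of linker histones, were all lower in B cells, by differences between -2.91 and -4.89.

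Polycomb and Trithorax complexes, the subject of the study, keep genes silent or active through histone marks. Of all tested genes, 23.9% were called in either direction, and in the 4 lists of these complexes and of SWI/SNF remodellers 3 of 11, 4 of 20, 4 of 17 and 5 of 27 were, shares near that background. In Polycomb repressive complex 2, 1 of 11 measured subunits was higher and 2 were lower, with a median of -1.52. Phf1, an accessory subunit, had 59.96 and 62.1 FPKM in B and 5.82 and 5.54 FPKM in ES cells. Jarid2 was lower, with 26.27 and 26.5 FPKM against 130.31 and 130.63 FPKM, and the histone-binding Rbbp7 passed the limit narrowly. The methyltransferases Ezh2 and Ezh1 did not pass. Ezh2 had 24.02 and 24.32 FPKM in B and 83.57 and 82.71 FPKM in ES cells, and Ezh1 had 27.97 and 27.35 FPKM against 7.96 and 8.28 FPKM. Per length, Ezh2 was well above Ezh1 in ES cells, while in B cells Ezh1 was only slightly above Ezh2.

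In Polycomb repressive complex 1, 1 of 20 measured genes was higher and 3 were lower, and the median was 0.08. Pcgf2 had 0.3 and 0.35 FPKM in B and 36.87 and 37.43 FPKM in ES cells. Its paralog Bmi1 was on the other side, with 14.87 and 14.98 FPKM against 3.12 and 3.49 FPKM, a difference of 1.89 that was not called. Phc1 (-3.46) and Cbx2 (-2.09) were lower. After either scaling, 4 genes of this list were called higher and 2 lower. Of 17 Trithorax and COMPASS genes, Kmt2a (2.24) and Ash1l (2.17) were higher and the core subunits Ash2l (-2.64) and Dpy30 (-2.17) lower. Of 27 SWI/SNF genes, Bcl11a, Smarca2 and Smarcc2 were higher and Smarcc1 and Dpf1 lower. Smarcc2 had 49.73 and 49.52 FPKM in B and 10.45 and 10.27 FPKM in ES cells, and Smarcc1 had 16.82 and 16.6 FPKM against 74.12 and 73.6 FPKM.

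Among genes of DNA methylation, Dnmt3l, a cofactor of the de novo methyltransferases, had 0.82 and 0.75 FPKM in B and 262 and 261 FPKM in ES cells. Dnmt3b differed by -4.07 and Dnmt3a by -0.05. Zfp57, which protects imprints, had 0.1 and 0.16 FPKM against 247 and 241 FPKM, and its partner Trim28 had 63.4 and 63.55 FPKM against 581 and 588 FPKM. Uhrf1, which guides maintenance methylation, was lower by a difference of -2.94. The deaminase Apobec3 (3.12) and the methyl-CpG binder Mbd2 (2.03) were the list's 2 members called higher.

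The genes lower in B cells were headed by metallothioneins, ES cell markers and matrix genes. Mt2, which binds zinc and other metals, had 0.25 and 0.16 FPKM in B and 998.7 and 991 FPKM in ES cells, a difference of -9.69. Dppa5a differed by -9.67. Others among the 15 largest were Spp1, Tdgf1, Mt1, Utf1, Pou5f1, Trh, Bgn, L1td1, Igfbp2, Zfp57, Tnc and Gsta4, with differences between -9.05 and -7.70. Among the 10 highest levels in ES cells were those of Hsp90ab1, Rpl8, Eef1a1, Npm1, Rplp2, Gnb2l1, Rpl4, Rplp1 and Rps21. Of these, Hsp90ab1 (-2.42) and Npm1 (-3.17) were called lower in B cells. Ribosomal protein genes and Npm1 have many processed pseudogenes that could share their reads.

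Every measured core pluripotency factor, 24 of 24, was lower in B cells, with a median of -5.26. Sox2 had 0.07 and 0.05 FPKM in B and 168 and 169.8 FPKM in ES cells, Nanog 0.04 FPKM in both B libraries against 144 and 146 FPKM, and Esrrb 0.06 and 0.07 FPKM against 144 and 146 FPKM. Utf1 differed by -8.11 and Sall4 by -6.80. Zfp281 had the smallest difference of the list, -2.24, and was still at 6.95 and 6.8 FPKM in B cells. Nanog has processed pseudogenes whose reads could not be told apart here.

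All 25 measured Dppa genes and other ES cell markers were lower as well, with a median of -4.80. Tdgf1, a Nodal co-receptor, had 0.07 and 0.04 FPKM in B and 353 and 352 FPKM in ES cells. L1td1 differed by -7.83 and Tdh, the threonine dehydrogenase of mouse ES cells, by -7.52. Lin28a, which blocks maturation of let-7, had 0.03 and 0.05 FPKM against 106 and 105 FPKM. Members of this list that remained above 10 FPKM in B cells were Slc2a3, Mkrn1, Rif1, Fbxo15 and Jarid2. Primed pluripotency genes were lower in 7 of 10 cases, and in 6 after either scaling. Their ES levels varied. Otx2 had 10.82 and 10.32 FPKM and Fgf5 2.75 and 2.58 FPKM in ES cells. Dnmt3b of the same list had 86.11 and 86.13 FPKM there, above the core factor Klf4 with 45.99 and 45.62 FPKM. Early germ layer genes were lower in 3 of 20 cases, a share near the 14% of all tested genes. The other 17 were under 5 FPKM in both groups.

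Of 27 genes of LIF, FGF, Nodal, BMP and Wnt signalling, 17 were lower in B cells and none higher, with a median of -3.13. Etv4, an Ets factor downstream of FGF, had 0.07 and 0.18 FPKM in B and 64.83 and 63.56 FPKM in ES cells, and Fgf4 had 0 and 0.01 FPKM against 50.3 and 51.9 FPKM. Lefty2 (-4.91), a Nodal antagonist, and Id1 (-5.35), a BMP target, were lower. The LIF transducer Stat3 (0.67) and the BMP target Id3 (0.04) were not called. After either scaling, 15 genes of this list were called lower. Epithelial junction genes were lower in 19 of 22 cases, with a median of -4.25. Gja1, a gap junction connexin, had 0.06 and 0.08 FPKM against 103.6 and 103.6 FPKM, and Cdh1, E-cadherin, had 0.89 and 1.04 FPKM against 80.28 and 80.41 FPKM.

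**Figure D4:**
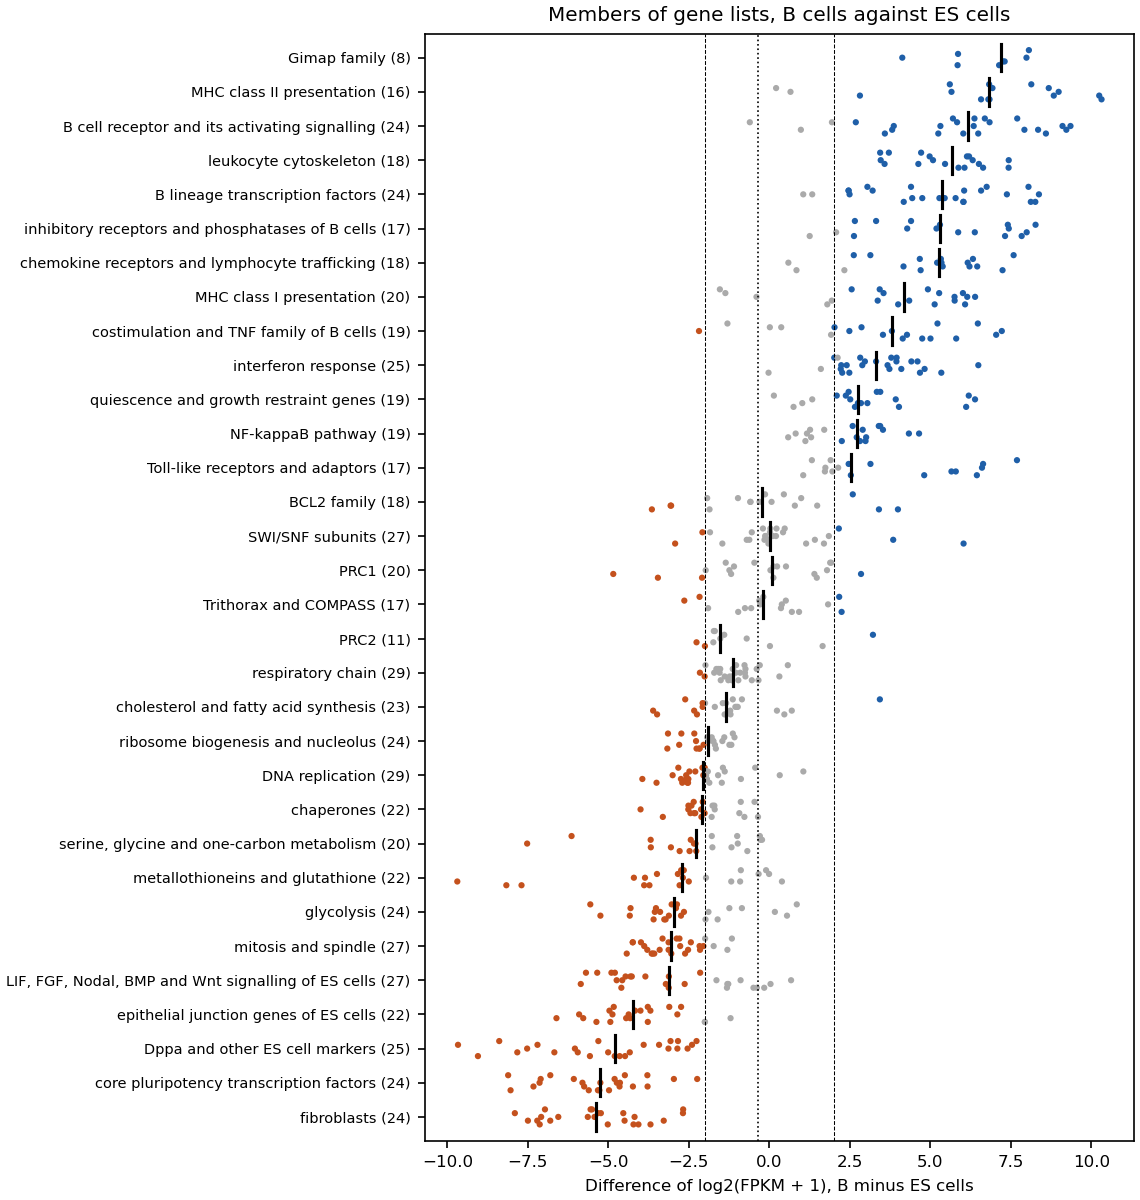
Difference of log2(FPKM + 1), B minus ES cells, of every measured member of 32 gene lists, with the number of members in parentheses. Blue points are called higher and orange points lower in B cells, grey points beyond the dashed limits at -2 and 2 are under 5 FPKM, black bars are list medians, and the dotted line is the median of all tested genes, -0.35. The Gimap, class II and B cell receptor lists lie furthest right, and the pluripotency and fibroblast lists furthest left.

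Genes of cell division were lower in B cells as a block. Of 27 mitosis and spindle genes, 23 were lower and none higher, with a median of -3.05, and 20 and 21 were lower after the 2 scalings. Ccnb1, the mitotic cyclin, had 1.8 and 1.73 FPKM in B and 59.77 and 57.41 FPKM in ES cells. Cdc20, an activator of the anaphase-promoting complex, had 6.86 and 6.73 FPKM against 146.3 and 146.9 FPKM. Ube2c, the ubiquitin-conjugating enzyme of that complex, differed by -4.24, the checkpoint kinase Bub1 by -3.99 and Cdk1 by -3.89. Mki67, the proliferation antigen, had 15.51 and 15.73 FPKM in B cells against 36.42 and 36.12 FPKM and was not called.

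Promoters of such genes are known for CCAAT boxes and for a cell cycle homology region (CHR) near the start, bound by the DREAM and MuvB complexes. The RefSeq promoter table held 22 of the 27 genes and had no entry for Tpx2, Kif20a, Cdc25c, Aurkb and Incenp. CCAAT was found on either strand in 19 of the 22 (86.36%) and in 38.83% of the 9815 promoters of tested genes, and at least 2 copies in 13 of the 22 against 14.62%. TTTGAA, the common form of the CHR, was found on either strand together with CCAAT in 15 of the 22 and in 4.97% of the promoters of tested genes. The 120 bases before the start are given for the 5 genes with the largest differences that had an entry, with CCAAT and TTTGAA on either strand in capitals (ATTGG and TTCAAA on the strand shown are the reverse forms). Bub1 and Ccnb1 have 2 CCAAT copies here and no TTTGAA in their whole window.
Ccnb1: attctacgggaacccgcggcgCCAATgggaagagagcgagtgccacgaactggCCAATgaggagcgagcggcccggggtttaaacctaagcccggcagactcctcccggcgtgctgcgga
Cdc20: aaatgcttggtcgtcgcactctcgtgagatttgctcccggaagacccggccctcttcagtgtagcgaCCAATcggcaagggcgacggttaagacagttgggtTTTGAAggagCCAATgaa
Ube2c: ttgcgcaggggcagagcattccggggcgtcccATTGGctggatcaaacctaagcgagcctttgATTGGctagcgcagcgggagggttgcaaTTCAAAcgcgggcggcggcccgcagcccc
Bub1: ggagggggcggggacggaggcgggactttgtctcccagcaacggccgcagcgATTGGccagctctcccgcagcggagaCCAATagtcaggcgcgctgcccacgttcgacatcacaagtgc
Cdk1: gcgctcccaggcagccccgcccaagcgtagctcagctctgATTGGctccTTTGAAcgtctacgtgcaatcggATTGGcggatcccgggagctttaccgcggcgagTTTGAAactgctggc

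These windows lie at chr13:100786487-100786606 for Ccnb1, chr4:118437344-118437463 for Cdc20, chr2:127831860-127831979 for Bub1 and chr10:69352913-69353032 for Cdk1, all on the minus strand, and at chr2:164769809-164769928 on the plus strand for Ube2c. As for class II genes, the letters are a description and say nothing of binding.

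DNA replication genes were lower in 16 of 29 cases (13 after either scaling) and higher in none, with a median of -2.05. Mcm10 had 2.44 and 2.07 FPKM in B and 49.26 and 48.97 FPKM in ES cells, and Rrm2, the S-phase subunit of ribonucleotide reductase, had 10.98 and 10.42 FPKM against 133 and 131 FPKM. Rrm2b, the paralog of cells that do not divide, was higher, with 12.81 and 13.59 FPKM against 2.4 and 2.38 FPKM. Recombination and mismatch repair genes were lower in 10 of 23 cases, among them Exo1 (-3.36) and Msh6 (-3.07). With the median ratio 8 were lower, and 7 after quantile normalization. Among G1 genes, Ccnd1 (-3.72), Ccna2 (-3.35), Ccne1 (-3.31) and Cdk4 (-2.43) were lower, while E2f2 (3.02) and the pocket protein Rbl2 (2.75) were higher.

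The inhibitors of cyclin-dependent kinases split in opposite directions. Cdkn1b, p27, had 62.37 and 62.4 FPKM in B and 10.32 and 9.94 FPKM in ES cells, and Cdkn2c, p18, had 7.13 and 7.34 FPKM against 0.65 and 0.53 FPKM. Cdkn1a, p21, had 1.1 and 1.09 FPKM in B and 68.57 and 69.35 FPKM in ES cells, and Cdkn2a had 0.18 and 0.11 FPKM against 24.69 and 25.95 FPKM. Cdkn1c and Cdkn2b were lower too. The 4 inhibitors higher in the ES libraries are also genes of cultured fibroblasts, whose markers are given below, and the part of the feeder cells in their levels was not tested. Genes of quiescence and growth restraint were higher in B cells in 15 of 19 cases, with a median of 2.75. Tsc22d3, a glucocorticoid-induced leucine zipper, had 285 and 289 FPKM against 2.6 and 2.3 FPKM, the cannabinoid receptor Cnr2 differed by 6.19, Slfn2 by 6.11 and the antiproliferative factor Btg1 by 4.02.

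In the BCL2 family 3 of 18 measured members were higher and 3 lower, against 9.9% and 14% of all tested genes. Bcl2 had 25.18 and 24.65 FPKM in B and 0.59 and 0.67 FPKM in ES cells, and Bcl2l1, its anti-apoptotic relative, had 2.42 and 2.38 FPKM against 27.19 and 27.22 FPKM. The pro-apoptotic Bok (-3.65) and Pmaip1 (-3.07) were lower and Bmf (2.59) higher. Bcl2a1b (3.40) was higher too, but it has near-identical copies. Mcl1 had 255 FPKM in both B libraries and 128.4 and 128.2 FPKM in ES cells and was not called.

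Metabolic lists were lower in B cells to different degrees. Glycolysis genes were lower in 16 of 24 cases under every scaling and higher in none, with a median of -2.97. Ldhb, a lactate dehydrogenase subunit, had 0.75 and 0.91 FPKM in B and 84.22 and 86.57 FPKM in ES cells, and the lactate exporter Slc16a3 had 0.56 and 0.69 FPKM against 61.05 and 60.36 FPKM. Hk2 differed by -4.31 while Hk1 differed by 0.17. The glucose carriers Slc2a1 (28.86 and 29.06 FPKM against 361.3 and 361.2 FPKM) and Slc2a3 were lower, and Slc2a6 was higher by 2.44. Gapdh, Pgk1, Tpi1 and Pgam1 were lower, but these genes have processed pseudogenes that could share reads.

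Serine, glycine and one-carbon genes were lower in 11 of 20 cases, with a median of -2.28. Besides Tdh, Gldc of the glycine cleavage system had 0.05 FPKM in both B libraries and 72.77 and 73.59 FPKM in ES cells. Its partners Gcsh (-3.68) and Amt (-2.79) were lower, and so was Gcat (-3.69), which is not part of that system. Metallothionein and glutathione genes were lower in 14 of 22 cases, with a median of -2.71. Gsta4, a glutathione transferase, had 0.19 and 0.24 FPKM against 254 and 248 FPKM, and glutathione reductase, Gsr, had 2.82 and 3.03 FPKM against 70.9 and 72.16 FPKM. Chaperones were lower in 13 of 22 cases and in 9 after either scaling. Hsp90aa1 had 24.23 and 23.82 FPKM against 400.1 and 399 FPKM. Ribosome biogenesis genes were lower in 10 of 24 cases, with 7 and 9 after the scalings.

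The respiratory chain had the fewest calls among the metabolic lists. Of its 29 measured genes 2, Cox7a1 and Atp5b, were called lower, against 14% of all tested genes, and none after either scaling. Its median was -1.14, with 27 of the 29 differences below 0. The median of amino acid carriers and polyamine genes was -0.835. Cholesterol and fatty acid synthesis genes were lower in 7 of 23 cases, and in 5 after either scaling. The 1 member called higher was Scd1, a stearoyl-CoA desaturase, with 235 and 236 FPKM in B and 21.07 and 20.84 FPKM in ES cells, a difference of 3.43. Its paralog Scd2 had 36.07 and 36.7 FPKM against 97.04 and 96.88 FPKM and was not called, and the CD4 T mean of Scd1 was 12.25 FPKM. Among amino acid carriers and polyamine genes, Slc7a3 (-5.82), Slc38a4 (-5.72) and Odc1 (-3.55) were lower, and Sat1, which marks polyamines for export, was higher by 2.21.

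Some genes were listed at exactly 0 in both libraries of 1 group. Among genes at 5 FPKM or more in the other group, 10 were at 0 in ES cells and 110 at 0 in B cells. The highest of the first set were Gzma (48.33 and 45.3 FPKM), Ffar1 (33.97 and 35.23 FPKM), Mx1, Trim30b and Klra21. Of these, Ffar1 is a receptor of free fatty acids. The highest of the second set were Tcf15 (59.88 and 62.18 FPKM), Gdf3 (46.61 and 46.6 FPKM), Lox, Rbmxl2 and Gpa33. No fold is given for them.

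Leading transcripts rarely differed between the cell types. Of 668 genes with several RefSeq rows and at least 5 FPKM in both groups, 1 (0.15%) had a row with at least 70% of the gene's FPKM in 1 group and at most 30% in the other. In Atxn7l1 this row held 74.81% and 73.93% in the B libraries and 27.41% and 24.1% in the ES libraries, over 29 and 7.82 FPKM in all. No gene passed at 80% and 20%.

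Genes of other cell types were measured as well. In a bulk library, fewer cells of a type and less RNA per cell cannot be told apart. The 24 measured fibroblast genes of the ES libraries summed to between 2841 and 2848 FPKM, against between 25.36 and 25.48 FPKM in B cells. All were called lower in B cells, and 22 after either scaling. Fn1, a matrix protein, had 363 FPKM in both ES libraries and Col1a1 145 and 148 FPKM. Genes such as Spp1, Bgn, Tnc, Lmna and Ccnd1, which ES cells or fibroblasts may express, moved with this list, and the part of the feeder cells in their values was not tested. Pou5f1, Sox2 and Dppa5a stood at 168 FPKM or more in the same libraries.

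Of 16 measured NK and cytotoxic genes, 13 were higher in B than in ES cells. The list summed to 395 and 392 FPKM in the B libraries, 9.93 and 10.41 FPKM in the ES libraries and 547 and 539.6 FPKM in the CD4 T libraries. Gzma, a granule protease, had 48.33 and 45.3 FPKM in B, was listed at 0 in both ES libraries and had a mean of 3.35 FPKM in CD4 T cells. Ncr1 had 13.87 and 15.6 FPKM in B and a mean of 1.07 FPKM in T cells, and Klre1 23.43 and 23.29 FPKM against 4.12 FPKM. While Gzma, Ncr1 and Klre1 were higher in B than in CD4 T cells, the list's sum was higher in CD4 T cells. Other members of the list therefore went the other way. Of 20 measured T cell genes, Cd2, Cd4 and Cd8b1 were higher in B than in ES cells and Thy1 was lower. Among all tested genes the shares higher and lower were 9.9% and 14%. In the T cell list 7 genes were at 5 FPKM or more in B cells. The list summed to 303 and 300.4 FPKM in the B libraries and to 4301 and 4304 FPKM in the CD4 T libraries. Cd3e, a chain of the T cell receptor complex, was at 2.27 and 1.76 FPKM and Cd4 at 8.09 and 8.68 FPKM in B cells, against 244 and 299 FPKM on average in CD4 T cells. Cd2, an adhesion receptor, was at 180.5 and 178.8 FPKM in the B libraries, the larger part of the list's sum there.

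Plasmacytoid dendritic cell genes were higher than in ES cells in 7 of 12 cases, with Siglech at 39.21 FPKM in both B libraries and 78.96 FPKM on average in CD4 T cells. Macrophage and dendritic cell genes were higher in 8 of 19 cases, with Mpeg1 at 45.24 and 44.89 FPKM and C1qa at 21.97 and 21.53 FPKM, and CD4 T means of 68.31 and 73.41 FPKM. Of 10 measured erythroid genes, 2 were at 5 FPKM or more in B cells. That list summed to 45.91 and 43.44 FPKM in the B libraries and to 143.32 and 141.73 FPKM in the ES libraries. No neutrophil or mast cell gene was at 5 FPKM or more in B cells, nor was any platelet gene. The part of these cells in the inhibitory receptor, Toll-like receptor, interferon, cytoskeleton and class II values, whose genes myeloid or NK cells also express, was not tested. The B cell genes Cd79a, Cd79b, Ms4a1 and Pax5 were at 440 FPKM or more in the same libraries.

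**Figure D5:**
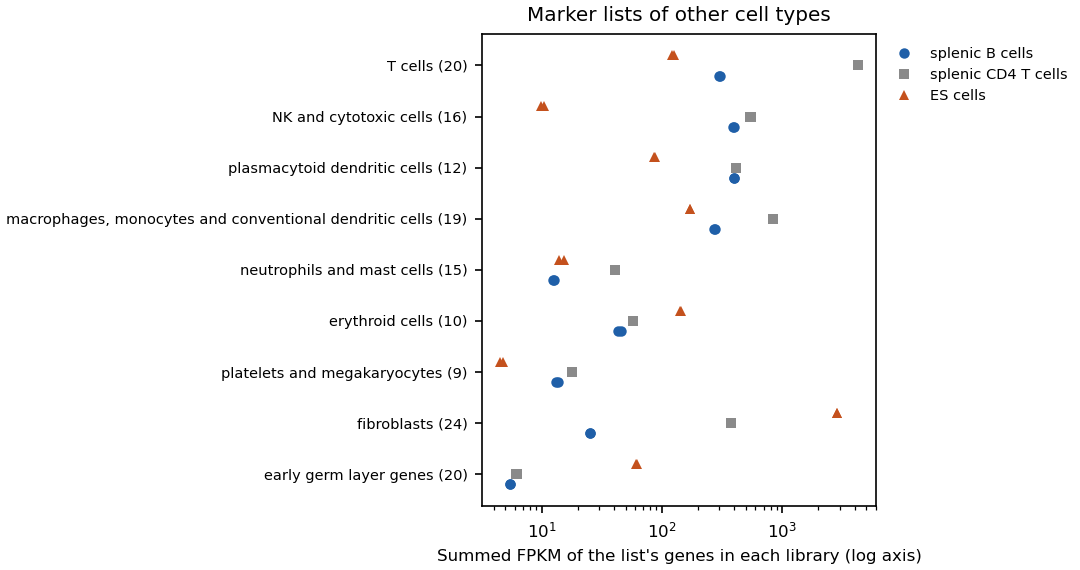
Summed FPKM of marker lists of other cell types in each library, on a log axis, with circles for B, squares for CD4 T and triangles for ES libraries and the number of measured genes in parentheses. Fibroblast genes are highest in the ES libraries, near 2841 to 2848 FPKM, and NK genes in the B libraries lie near 392 to 395 FPKM. The fibroblast list includes Thy1, which T cells express.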

How the data were processed

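RNA-seq levels of 4 mouse libraries were compared, 2 of splenic B cells and 2 of ES cells, with 2 libraries of splenic CD4 T cells beside them. Groups were taken from the sample labels. The authors deposited 1 FPKM value per RefSeq transcript and library. Per the submitters' processing notes, the tools were TopHat 1.3.2, Bowtie 0.12.8 and Cufflinks 2.0.2 on mm10. The files carry no header, so the unit rests on the values and on these tools. The sources used here do not state the read depth, or how strand and reads matching several places were treated. Neither sampling intervals nor count tests can therefore be given, and genes with near-identical copies or pseudogenes are uncertain.

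The 21035 rows were reduced to 19025 genes by taking each gene's highest row. Symbols damaged in the files (315 rows without a symbol and 30 turned into dates) were restored through the RefSeq accession where it was found. A gene was tested when both libraries of B or of ES cells had at least 1 FPKM. The size rule asked for a difference of at least 2 in log2(FPKM + 1) and 5 FPKM in the higher group. The 2 libraries of a group were near-identical, so each pair counted as 1 sample and no p-value was computed.

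Named genes were the 15 largest differences in each direction, the 10 highest levels per group, the 5 highest genes listed at 0 in the other group, up to 6 members of each list by size of difference, the members of paralog families, and the highest markers of other cell types. Some genes that this rule covers are not reported here. Further members, among them Ciita, the RFX subunits, Brd2, Ebf1, Bst2, Cd81, Cd9, Scd2, Mcl1, Mki67, Tnfrsf1a, Id3, Stat3 and Zfp281, were named after their values had been seen. The comparison, the 54 gene lists and the 25 paralog families were chosen with earlier results of these data known, so their counts are descriptions. Of 1007 listed names, 976 matched a gene. The size rule was run on simulated data with known changes, which checks the code and holds no variation between animals or cultures. Alternatives covered each library left out, the summary of transcript rows, the pseudocount, the scaling, the low-value filter and the limits. Python 3.11.15, pandas 2.3.3, numpy 2.4.6 and matplotlib 3.10.9 were used.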

Additional observations from a re-analysis of the deposited data

How the results depend on the processing

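No paired analysis was possible because no test was made: the 2 libraries of each group counted as 1 sample. The counts of genes higher and lower in B cells stayed within 1.5 times of 1220 and 1727 in all alternatives except the following. With a pseudocount of 5 FPKM they were 776 and 833. With at least 20 FPKM required in the higher group the lower count was 926. A limit of 1 on the difference gave 2257 and 3221, and a limit of 3 gave 701 and 911. Leaving out 1 library at a time gave 1219 to 1223 genes higher and 1722 to 1741 lower, and 1 gene with another leading transcript each time. That gene, Atxn7l1, did not pass when 20 FPKM was required or when the shares were set at 80% and 20%, which left 0 genes. Higher genes made up 41.4% of calls, 48.23% with the median ratio and 48.78% with quantile normalization. Of 329 called genes followed through the alternatives, none changed direction, 321 kept their call with the median ratio, 322 with quantile normalization and 271 with a pseudocount of 5 FPKM. With 1 sample per group, variation between animals or cultures is unknown, and the depth behind low FPKM values is unknown.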

Other observations

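Imprinted genes, which are expressed from 1 parental copy, were lower in B cells in 13 of 19 measured cases (11 after either scaling). None was higher, and the median difference was -2.65. Peg10 had 0.14 and 0.11 FPKM in B and 119.9 and 118.8 FPKM in ES cells, the growth factor gene Igf2 had 0.03 and 0.01 FPKM against 96.17 and 95.82 FPKM, and Snrpn differed by -5.82. Impact, with 10.8 and 11.65 FPKM against 34.86 and 35.44 FPKM, and Zrsr1, with 6.25 and 6.54 FPKM against 8.68 and 8.15 FPKM, were measured above 5 FPKM in both groups and were not called. Embryonic fibroblasts also express many imprinted genes, and the part of the feeder cells was not tested.

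Immediate early genes, which respond to stimulation within minutes, split. In this list 5 of 21 were higher in B cells and 3 lower, against 9.9% and 14% of all tested genes. The phosphatase gene Dusp2 had 174 and 176 FPKM in B and 1.18 and 1.0 FPKM in ES cells, Cd69 had 46.9 and 46.07 FPKM against 0.02 and 0.07 FPKM, and Zfp36, which destabilizes messenger RNA, had 214 and 213 FPKM against 12.51 and 11.9 FPKM. Ier3, Fosl1 and Fosl2 were lower, by differences of -4.74, -2.70 and -2.32, and Fosl2 lost its call under quantile normalization. Fos, Jun and Egr1 were not called, and Fos had 26.72 and 27.35 FPKM in B and 12.9 and 12.92 FPKM in ES cells.

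The Y-linked gene Eif2s3y was listed at 0 in both B libraries and had 24.76 and 24.78 FPKM in ES cells. Uty was also listed at 0 in both B libraries, and Ddx3y had 0.04 and 0.03 FPKM there, against 6.93 and 6.32 FPKM and 6.25 and 6.75 FPKM in ES cells. The labels used here do not give the sex of the mice.

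Genes of the transient state of ES cells that resembles the early embryo were low in both groups. Of 12 measured, 11 were under 5 FPKM in both, and Zscan4c had 0.18 and 0.08 FPKM in ES cells. Eif1a was called lower in B cells, with 13.73 and 13.66 FPKM against 112.1 and 111.3 FPKM.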
